A study of Mus musculus with 34 samples.

Results

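The widest stretches of the repressive histone mark H3K27me3 in untreated wild-type bone marrow-derived dendritic cells (BMDCs) are described here. They were selected on width alone, as H3K27me3 ChIP-seq peaks at least 5 kb wide on chromosomes 1 to 19, which gave 3062 of the 95804 peaks listed there for these cells. The choice used peak width in the untreated wild-type list, so widths are given as a description, while the H3K27me3 peaks of the other conditions and the peaks of the other antibodies were not used in it.

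Mouse bone marrow (strain C57BL/6, labelled as 8 weeks old) was grown over 6 days in medium containing GM-CSF, a cytokine under which marrow cells differentiate into BMDCs. WT cells carried CreER and KO cells carried CreER;CTCFfl/fl. Both received 4-OH tamoxifen on the opening day of culture, which activates the recombinase and deletes Ctcf in the KO cells. WTLPS and KOLPS cells were stimulated in addition with the bacterial cell wall component LPS at 100 ng/ml for 3 h. Separate ChIP-seq peak lists were available for H3K27me3, CTCF, SMC1, H3K4me3, H3K27ac, H3K4me1 and the NF-kB subunit p65 in these 4 conditions. STAT5 lists covered WT and KO, with GM-CSF added again for 15 min. Per the methods, the study used mice of both sexes, with littermates matched for age and sex as WT. The number and sex of mice behind each single list were not given in the sources used here.

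H3K27me3 is deposited by Polycomb repressive complex PRC2, which spreads it from CpG-rich sites over silent genes, above all those of transcription factors that specify other lineages. CTCF is a zinc finger protein that binds a defined DNA motif and stops the ring-shaped cohesin complex, of which SMC1 is a subunit. The resulting loops and boundaries can separate neighbouring chromatin states. H3K4me3 marks promoters and H3K27ac marks active promoters and enhancers. Promoters with both H3K4me3 and H3K27me3 are called bivalent.

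Each condition had 1 list per antibody, so no test between conditions was possible, and all 95% intervals cover counting error over regions only. The LPS lists, and that of KOLPS above all, stand apart in size. On chromosomes 1 to 19 the H3K27me3 list held 95804 peaks (116.5 Mb) for WT, 65587 (56.5 Mb) for WTLPS, 94558 (112.5 Mb) for KO and 26910 (18.7 Mb) for KOLPS. The lowest −log10 p was 2.72, 3.03, 2.75 and 3.47 in the same order, so thresholds differed between lists. By the read totals in the study's reporting summary, the KOLPS H3K27me3 library was sequenced somewhat deeper than that of WTLPS. Both LPS libraries were sequenced less deeply than those of WT and KO. What set the list sizes, depth included, was not tested. Less signal per cell and fewer cells carrying the mark, for example, cannot be told apart. The KOLPS list was also the shortest of the 4 for CTCF, SMC1, H3K4me3 and H3K4me1, though not for H3K27ac or p65. For CTCF it held 11460 peaks on chromosomes 1 to 19, against 52890 in WTLPS. All 10 dendritic and myeloid marker genes examined (Itgax, Itgam, Cd74, H2-Ab1, Csf2rb, Csf2ra, Spi1, Irf8, Cebpa and Lyz2) had an H3K4me3 peak within 1 kb of their start in every condition. The same held for 1 of 4 B cell markers (Ebf1), 1 of 4 T cell markers (Gata3), 1 of 2 erythroid markers (Klf1) and 1 of 3 neutrophil markers (S100a8).

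DNA from the domains and beside them is shown first, because base composition and the CTCF motif are the features that can be read directly from it. The 3 widest domains are represented by their 200-base window with the most CG dinucleotides, printed in lower case with each CG in capitals (mm10, plus strand, RefSeq GRCm38.p6 sequence). None of these windows lies in a protein-coding gene.
chr12:12520401-12520600, domain of 91011 bp: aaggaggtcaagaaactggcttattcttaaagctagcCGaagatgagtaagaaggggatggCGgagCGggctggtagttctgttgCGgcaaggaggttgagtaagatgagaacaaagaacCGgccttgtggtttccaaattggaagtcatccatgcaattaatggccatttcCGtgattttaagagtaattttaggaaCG
chr15:6940577-6940776, domain of 78092 bp: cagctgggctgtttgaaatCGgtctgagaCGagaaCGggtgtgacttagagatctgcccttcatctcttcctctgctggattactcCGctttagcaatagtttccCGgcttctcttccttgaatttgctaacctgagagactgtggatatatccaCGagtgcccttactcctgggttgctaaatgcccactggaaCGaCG
chr11:54158857-54159056, domain of 66672 bp: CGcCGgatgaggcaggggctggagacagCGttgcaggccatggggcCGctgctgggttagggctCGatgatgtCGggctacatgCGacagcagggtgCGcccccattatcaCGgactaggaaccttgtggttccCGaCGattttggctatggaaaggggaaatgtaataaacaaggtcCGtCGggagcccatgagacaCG
These windows held 7, 8 and 14 CG dinucleotides, so the window on chromosome 11 was the richest of the 3.

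The next 4 sequences are the strongest WT CTCF peaks by fold enrichment that lie within 10 kb outside a wide domain and carry the CTCF core motif. Each is 60 bases long, reads 5′ to 3′ on the strand of the motif, and has the motif CCNNNAGNNGGC in capitals (N is any base).
chr9:58928281-58928340, minus strand, in an intron of Neo1: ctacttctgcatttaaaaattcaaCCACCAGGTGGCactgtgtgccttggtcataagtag
chr13:118403692-118403751, plus strand, outside protein-coding genes: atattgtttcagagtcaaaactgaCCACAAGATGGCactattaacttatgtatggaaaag
chr3:122638841-122638900, minus strand, outside protein-coding genes: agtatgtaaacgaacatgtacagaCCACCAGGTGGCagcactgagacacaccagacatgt
chr5:107287350-107287409, minus strand, in an intron of Tgfbr3: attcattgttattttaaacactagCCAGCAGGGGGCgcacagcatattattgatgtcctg
The site in Neo1, a receptor gene of the netrin family, lay 507 bp from a domain of 18934 bp. Its CTCF fold was 46.2 (WT), 47.9 (WTLPS), 27.9 (KO) and 19.6 (KOLPS). The site on chromosome 13 lay 1669 bp from a domain of 6650 bp and had folds of 45.6, 40.6, 8.10 and 6.02 in the same order. The site on chromosome 3 lay 9834 bp from a domain of 5442 bp and had folds of 45.5, 34.0, 20.6 and 14.1. The site in Tgfbr3, which encodes a TGF-beta co-receptor, lay 2562 bp from a domain of 5113 bp and had folds of 41.6, 39.9, 13.7 and 11.8. All 4 sites kept a called peak in KO, at a lower fold than in WT.

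Across all wide domains the DNA was only modestly richer in CG than the genome. The observed to expected CpG ratio was 0.235 over all domain bases, against 0.212 in WT peaks of 2 to 5 kb, 0.196 in WT peaks under 2 kb and 0.194 over chromosomes 1 to 19. Domains that held the start site of a protein-coding gene had a median ratio of 0.315 (quartiles 0.225 and 0.390, n = 356), and those without had a median of 0.195 (quartiles 0.154 and 0.248, n = 2706). Repeats, as soft-masked in the reference, made up 26.2% of domain bases and 32.6% of chromosomes 1 to 19. A ratio of at least 0.6, as in CpG islands, was found over the whole length of 7 domains.

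The 3062 domains were 3.196% of the WT peaks and held 22.9% of the bases under WT peaks, 26.7 Mb in all, which is 1.08% of chromosomes 1 to 19. Their median width was 6920 bp (quartiles 5727 and 9413 bp), 686 were at least 10 kb, 116 at least 20 kb and 11 at least 50 kb wide. Their fold enrichment was modest and narrow in range, from 2.89 to 5.49 with a median of 3.61 (quartiles 3.42 and 3.83). Many domains lay close to each other. Another wide domain lay within 10 kb of 1526 of them (49.8%), and the longest such run was 13 domains over 212363 bp at the Hoxc genes (chr15:102895261-103107623). The narrowest members were 5000, 5000 and 5001 bp wide and the widest peaks left out were 4998, 4995 and 4995 bp. KOLPS peaks covered 11.2%, 17.6% and 0% of those members, and 15.1%, 22.0% and 26.0% of those peaks left out.

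**Figure D1:**
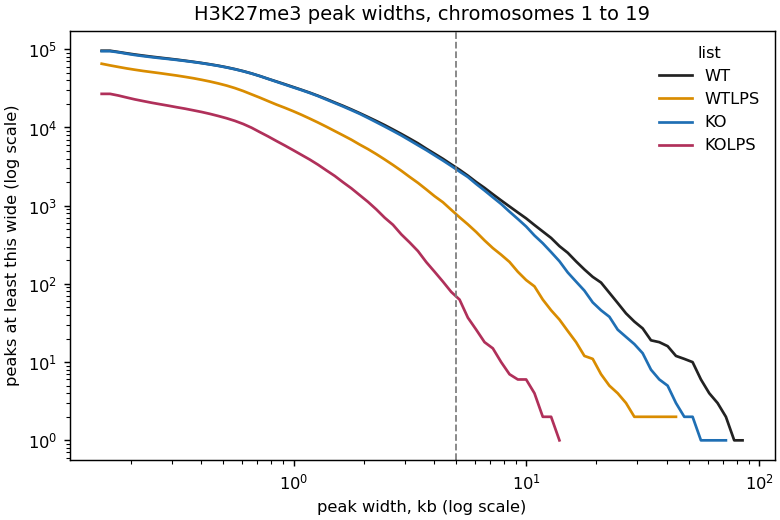
Number of H3K27me3 peaks on chromosomes 1 to 19 at least as wide as the value on the x axis (kb, log scale), with peak number on a log y axis and 1 line per list. At the dashed line of 5 kb the lists hold 3062 (WT), 770 (WTLPS), 2916 (KO) and 69 (KOLPS) peaks.

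The 10 widest domains showed which loci carried the longest stretches. The widest, 91011 bp on chromosome 12 (chr12:12472681-12563691), overlapped no protein-coding gene and lay 210542 bp from the nearest coding start, that of Fam49a. It was covered by H3K27me3 peaks over 92.4% of its length in WTLPS and 91.4% in KO, with 48.3% in KOLPS. The domain of 78092 bp next in width (chr15:6938428-7016519) was also intergenic, 63459 bp from Osmr, the oncostatin M receptor gene, with 91.7%, 98.1% and 46.0% covered. A 66672 bp domain (chr11:54156869-54223540) lay 26127 bp from the start of Csf2, which encodes GM-CSF, and was 92.2%, 84.1% and 28.9% covered. Of the other 7, a 64519 bp domain lay near S1pr1 (a sphingosine-1-phosphate receptor) and 3 lay in or over Prkca (protein kinase C alpha), Epn2 (an endocytic adaptor) and Plpp3 (a lipid phosphatase). The remaining 3 held coding starts, of Fam71f1, of Sytl2 (a Rab27 effector) and of Hoxc12, Hoxc11, Hoxc10 and Hoxc9. Across the 10, cover ran from 64.0% to 92.4% in WTLPS, from 83.4% to 98.6% in KO and from 24.7% to 53.6% in KOLPS. In each of the 10, KOLPS gave the lowest cover.

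H3K27me3 peak cover of the wide domains was largely retained in KO, partly in WTLPS and little in KOLPS. A domain was counted as kept where at least 50% of its bases lay under peaks of the other list. By this rule 2595 domains were kept in KO (84.7%, 95% Wilson interval 83.4 to 86.0%), 2001 in WTLPS (65.3%, 63.6 to 67.01%) and 286 in KOLPS (9.34%, 8.36 to 10.4%). Among all WT peaks, the shares kept were 34.9% in KO, 17.4% in WTLPS and 3.97% in KOLPS. The whole KOLPS list covered 18.7 Mb, less than the 26.7 Mb of the domains, so its peaks could not cover them all. Against WT peaks of 2 to 5 kb, the share kept was higher in wide domains by 23.8 percentage points in KO (Newcombe interval 22.2 to 25.3), 31.4 in WTLPS (29.5 to 33.3) and 3.06 in KOLPS (1.98 to 4.22). The median cover of a domain was 79.1% in KO (quartiles 61.8 and 90.7%), 59.98% in WTLPS (42.7 and 74.2%) and 20.2% in KOLPS (7.56 and 34.6%). With all 4 lists held to a −log10 p of at least 3.47, the highest of their lowest values, 3026 domains remained and 79.3% of them were kept in KO, 65.7% in WTLPS and 9.45% in KOLPS. At least 1 base lay under a peak in 3056 domains in KO (99.8%), 3054 in WTLPS (99.7%) and 2626 in KOLPS (85.8%). In the same order, the shares were 52.7%, 38.1% and 16.6% over all WT peaks. They were 93.0%, 88.0% and 48.6% over WT peaks of 2 to 5 kb, and a wider region is more easily touched.

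Cover rose with width in every list. Domains of 20 kb or more were kept in 114 of 116 cases (98.3%) in both KO and WTLPS, those of 10 to 20 kb in 92.8% and 86.3%, and those of 5 to 10 kb in 82.2% and 58.7%. In KOLPS the shares were 20.7%, 10.4% and 8.54% in the same order of width. The plot of cumulative cover shows this shift for the 3 width classes.

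**Figure D2:**
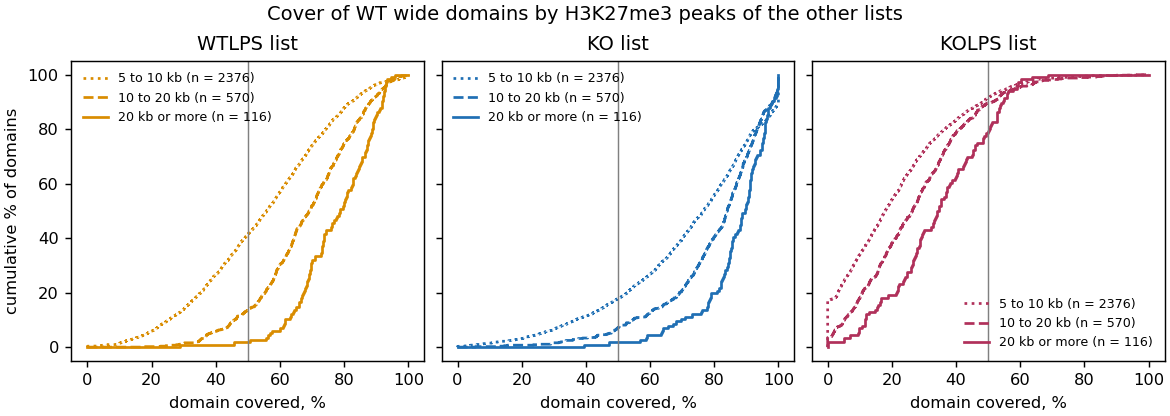
Cumulative percent of wide domains (y axis) by the percent of the domain's bases under H3K27me3 peaks of the WTLPS, KO or KOLPS list (x axis), with 1 line per width class. The vertical line marks the 50% rule, and at it 58.7%, 86.3% and 98.3% of the 3 classes lie to the right in WTLPS.

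Domain by domain, KO cover exceeded WTLPS cover in 2380 domains (77.7%) and was lower in 674. KOLPS cover was below WTLPS cover in 2930 domains (95.7%) and below KO cover in 3040 (99.3%). Of the 3062, 1570 (51.3%) were kept in WTLPS and KO and not in KOLPS, 266 were kept in all 3 lists and 302 in none. The same shares over all WT peaks are not given here. The order of cover runs the same way as list size, which was 112.5 Mb (KO), 56.5 Mb (WTLPS) and 18.7 Mb (KOLPS). Cover in the other lists was broken into several peaks. A domain met a median of 2 separate peaks in KO, 3 in WTLPS and 2 in KOLPS, and the longest of them held a median of 55.2%, 34.3% and 12.1% of the domain. The reverse comparison was close to symmetric for KO: of the 2916 KO peaks of at least 5 kb, 88.6% (87.4 to 89.7%) were at least 50% covered by WT peaks. It was not for the LPS lists, where 99.9% of the 770 wide WTLPS peaks and 94.2% of the 69 wide KOLPS peaks were covered by WT peaks.

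Among domains of at least 10 kb, the 3 with the highest KOLPS cover lay between genes or in Dock3. The first (chr8:71827560-71837836, 44183 bp from Zfp709) had 83.3% cover in WTLPS and 100.0% in KO, with 95.1% in KOLPS. The next (chr3:96328462-96345762) lay 34493 bp from Fcgr1, a high-affinity Fc receptor gene, with 89.7%, 96.7% and 90.0%. The one in Dock3 (chr9:107219674-107231026) had 92.0%, 99.5% and 87.4%. At the other end, 22 of the 686 domains of at least 10 kb had no base under a KOLPS peak. The 3 narrowest of these lay 84592 bp from Pthlh (35.6% in WTLPS, 12.5% in KO), 193106 bp from Maf (82.2%, 47.9%) and 33288 bp from S1pr1 (75.05%, 42.8%).

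Wide domains held gene starts more often than narrower H3K27me3 peaks, also per Mb, yet most held none. A protein-coding start site (longest transcript of each GENCODE gene) lay in 356 domains, or 11.6% (10.5 to 12.8%), against 1.03% of all WT peaks, which are narrower, and 2.99% of WT peaks of 2 to 5 kb. Per Mb, coding starts numbered 14.0 in wide domains, 10.2 in peaks of 2 to 5 kb and 8.45 over chromosomes 1 to 19. In all, 374 of 20807 coding genes (1.80%) started in a wide domain, 77 coding genes lay wholly inside them, and 1547 domains (50.5%) overlapped no coding gene. Exons of coding genes made up 4.29% of domain bases and 3.76% of chromosomes 1 to 19. Domains with a coding start were kept in KO in 94.7% of cases against 83.4% without, a difference of 11.2 points (8.07 to 13.6), and in WTLPS in 73.0% against 64.3%, a difference of 8.70 points (3.54 to 13.4). In KOLPS the difference was 0.238 points (−2.64 to 3.89). The domains with a coding start were wider, with a median of 8093 against 6810 bp.

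Developmental regulators made up a large share of these genes. Of 39 Hox genes, which set body-axis identity, 19 started in a wide domain (48.7%, 33.9 to 63.8%), and 15 of the 39 carried a WT H3K4me3 peak. The Hoxc12 to Hoxc9 domain of 54886 bp (chr15:102922343-102977228) was 78.8% covered in WTLPS, 98.6% in KO and 38.3% in KOLPS. Hoxb13 lay in a domain of 32477 bp (69.6%, 94.3% and 33.9%) and Hoxb1 in a domain of 26700 bp (61.0%, 82.1% and 30.2%). All 19 Hox starts were in domains kept in WTLPS and KO and none in a domain kept in KOLPS. Several of these starts share a domain, so they are not independent. Among 102 other homeobox factors, 36 started in a wide domain (35.3%, 26.7 to 44.9%). Among them were Tlx1, Gsx2, Dlx2, Otx2 and Uncx, which act in organ and nervous system development. The Tlx1 domain of 26766 bp was 50.7% covered in WTLPS and 87.0% in KO, with 28.7% in KOLPS.

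Of 85 Pax, Sox, Fox, Gata and Tbx factors, 17 started in a wide domain (20%), among them Foxb1, Pax2, Sox6, Pax5, Foxc2 and Sox7. Of 44 basic helix-loop-helix factors 8 did so (18.2%), among them the neural factors Olig2, Neurog1 and Neurod1 and the cardiac factors Hand1 and Hand2. The Neurog1 domain was 30.2% covered in WTLPS, 83.8% in KO and 10.5% in KOLPS, and that of Hand1 94.5%, 92.2% and 35.1%. Of 62 secreted Wnt, Bmp, Fgf and Hedgehog family ligands 6 did so (9.68%): Fgf20, Wnt9b, Nodal, Dhh, Bmp8b and Wnt8b. Over these 5 lists together, 86 starts lay in 78 wide domains. All 86 were in domains kept in KO, 77 in domains kept in WTLPS and 4 in domains kept in KOLPS. Of the other 288 coding starts, which lay in 278 wide domains, the counts were 269, 200 and 33. Starts in the same domain share its cover, and these groups were not matched for width.

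Olfactory and vomeronasal receptor genes started in wide domains less often than the 1.80% over all coding genes, with 11 of 1413 (0.778%, 0.435 to 1.39%), the widest domain being that of Vmn2r26. Several short lists had no start in a wide domain, and their intervals include the share over all coding genes, so no difference from it was detectable. These were 57 clustered protocadherin genes (interval up to 6.31%), 25 Polycomb subunit genes (13.3%) and 29 imprinted genes (11.7%). All 25 Polycomb subunit genes had a WT H3K4me3 peak at their start. The 10 dendritic or myeloid markers (27.8%), 4 T cell markers (49.0%) and 2 erythroid markers (65.8%) had none either.

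Lineage markers in wide domains were the B cell factors Pax5 and Ebf1 and the neutrophil gene S100a8. The Pax5 domain of 13566 bp was 57.8% covered in WTLPS, 95.8% in KO and 29.7% in KOLPS, and the Ebf1 domain of 6974 bp 54.7%, 96.96% and 23.0%. S100a8, which encodes a calcium-binding alarmin, lay in a domain of 7571 bp that was 11.8%, 18.1% and 0% covered. Its start had H3K4me3 in all 4 conditions and H3K27ac in KO and KOLPS. Among 27 LPS response genes 1 lay in a wide domain, Il12a, which encodes the p35 subunit of interleukin-12.

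The Il12a domain (chr3:68687578-68692614, 5037 bp) was 29.0% covered in WTLPS and 22.2% in KO, with 0% in KOLPS. The start of Il12a had an H3K4me3 peak in all 4 conditions, with a fold of 11.7 (WT), 15.8 (WTLPS), 8.63 (KO) and 9.87 (KOLPS). In the domain and the 2 kb to its right, H3K27ac gave 3 peaks in WTLPS, 1 in KOLPS and none in WT or KO. An SMC1 peak was called in that interval in WTLPS, with a fold of 4.58, and in no other condition. A separate domain of 20238 bp whose p65 peaks lay 53691 and 57983 bp from the Il12a start (chr3:68617164-68637401) was 28.9% covered in WTLPS, 39.3% in KO and 0% in KOLPS. Its p65 folds in WTLPS were 16.3 and 16.2. Il12a and S100a8 were among 19 coding starts whose domain was not kept in KO, as were the cytokine gene Il5 (37.4% in WTLPS, 36.4% in KO and 0% in KOLPS) and the chemokine gene Ccl24 (61.4%, 45.6% and 16.1%). Il5 and Ccl24 were singled out after their values were seen.

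**Figure D3:**
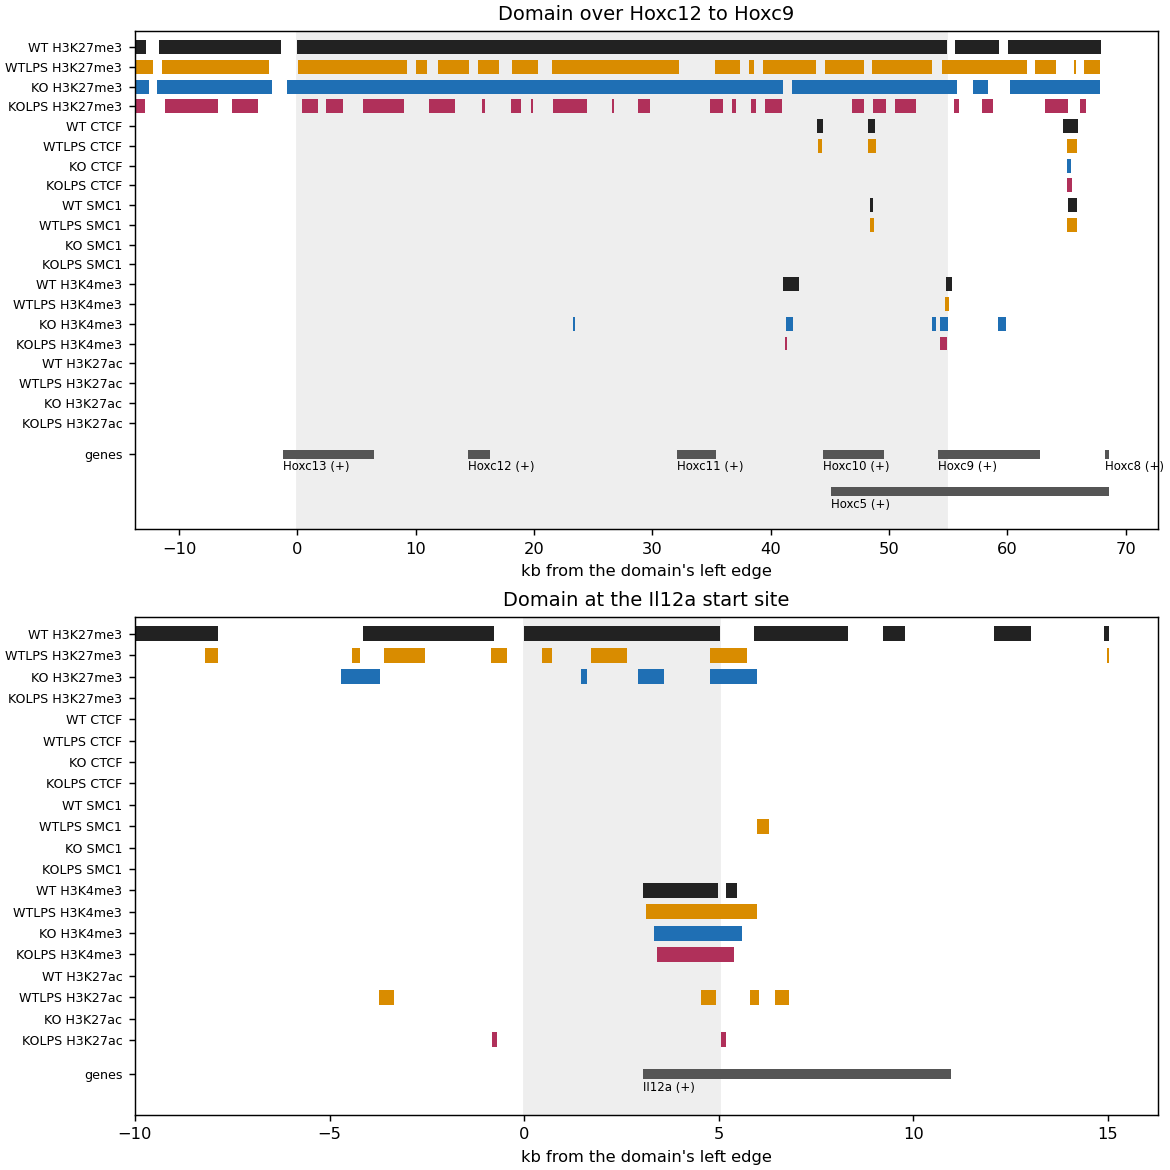
Peaks of 5 antibodies in 4 conditions and protein-coding genes (strand in brackets) against distance from the left edge of the domain in kb, for the domain over Hoxc12 to Hoxc9 (54886 bp, top) and the domain at Il12a (5037 bp, bottom), shaded. KO peaks cover 98.6% of the Hoxc domain and 22.2% of the Il12a domain, and no KOLPS H3K27me3 peak touches the latter.

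The type I interferon genes, antiviral cytokines that share one locus on chromosome 4, were counted after their values were seen. Of 18 such genes 11 started in wide domains, over 8 domains. The widest of these (chr4:88674834-88696246, 21413 bp) held the starts of Ifna16, Ifna2 and Ifnab and was 80.9% covered in WTLPS, 99.6% in KO and 59.4% in KOLPS. All 11 starts were in domains kept in KO, 10 in domains kept in WTLPS and 8 in domains kept in KOLPS. The Ifna14 domain was kept in neither LPS list, with 39.5% in WTLPS, 83.4% in KO and 0.745% in KOLPS. Of the 18 genes 1 had an H3K4me3 peak at its start in WT. These genes are close copies of each other, so fragments may be shared between them, and that was not tested.

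Promoters inside wide domains carried H3K4me3 often and H3K27ac seldom. Of the 374 starts, 153 (40.9%, 36.0 to 46.0%) had a WT H3K4me3 peak within 1 kb, against 56.4% of all coding starts. The numbers were 157 in WTLPS, 179 in KO and 163 in KOLPS. Across conditions, 137 starts had the mark in all 4 lists and 180 in none, and these shares over all coding starts are not given here. H3K27ac was found at 1 of the 374 starts in WT (Ccl24), 5 in WTLPS, 5 in KO and 7 in KOLPS, against 43.0% of all coding starts in WT. In WTLPS these 5 included Mmp9, a matrix metalloproteinase gene, and Tal1, a haematopoietic factor. Over the 4 lists, 12 starts had H3K27ac at least once.

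H3K4me3 peaks were more frequent within wide domains in KO. Summits of H3K4me3 peaks inside numbered 604 (WT), 608 (WTLPS), 892 (KO) and 696 (KOLPS), while totals on chromosomes 1 to 19 were 23523, 22727, 24817 and 20382. In the 10 kb flanks they numbered 1139, 1147, 1267 and 1154, so the KO count was also the highest there. The share of domains with a summit was 13.9% in WT (12.7 to 15.2%), 18.97% in KO (17.6 to 20.4%), 13.8% in WTLPS and 15.5% in KOLPS. Of 221 starts in wide domains that lacked H3K4me3 in WT, 30 had it in KO (13.6%), against 3.48% of all coding starts that lacked it. The reverse, H3K4me3 in WT and not in KO, was seen at 4 of the 153 starts that had it in WT. The share of such losses over all coding starts is not given here. Over all coding starts, 11725 had the mark in WT and 11824 in KO. In LPS-stimulated cells, 17 of 217 starts without it in WTLPS had it in KOLPS (7.83%), against 2.07% of all coding starts. Starts with a peak in KO and KOLPS and none in WT or WTLPS numbered 6, and the share over all coding starts is not given here. Genes of the 30 included Zic2, Hoxc5, Emx2, Olig2, Fezf2, Tbr1 and Gata4, all developmental factors, along with Gimap6 and H2-Q1. These names were chosen after the values were seen. KO cover by H3K27me3 stayed at 90.0% for the domain of Zic2, 88.2% for that of Olig2 and 75.1% for that of Gata4.

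Other marks were sparse or close to their surroundings. H3K27ac summits inside domains numbered 58 (WT), 214 (WTLPS), 132 (KO) and 212 (KOLPS). This was 2.18, 8.03, 4.95 and 7.95 per Mb, against 33.4, 30.8, 32.6 and 31.4 per Mb of chromosomes 1 to 19. H3K4me1 peak centres stood at 58.5 per Mb inside in WT, 58.1 per Mb in the 10 kb flanks and 37.5 per Mb on chromosomes 1 to 19. They numbered 1560, 1516, 1724 and 1068 inside domains in WT, WTLPS, KO and KOLPS. p65 summits inside numbered 2, 35, 0 and 6, out of 768, 5374, 499 and 1737 in the lists. STAT5 summits inside numbered 59 in WT and 50 in KO, out of 8039 and 6698 in the lists. These were 0.734% and 0.746% of the listed peaks. The strongest p65 peaks inside in WTLPS lay nearest to Slc5a1 (fold 25.9), Acod1 (18.9, 30930 bp from its start) and Csf2 (17.8, 67679 bp). Acod1 encodes an itaconate-producing enzyme induced by LPS. The 5326 bp domain with its p65 peak was 0% covered in WTLPS and 32.5% in KO, with 0% in KOLPS. The p65 peak nearest to Csf2 lay in the 66672 bp domain described above.

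CTCF and SMC1 were depleted inside wide domains relative to their flanks. In WT, 743 CTCF summits lay inside (27.9 per Mb) and 2009 in the 10 kb outside the edges (46.0 per Mb), against 24.1 per Mb on chromosomes 1 to 19. The inside to outside ratio was 0.605 for CTCF and 0.459 for SMC1, for which 547 summits lay inside (20.5 per Mb), 1951 outside (44.7 per Mb) and 25.5 per Mb on chromosomes 1 to 19. Inside peaks of 2 to 5 kb, the densities were 27.6 per Mb for CTCF and 13.3 per Mb for SMC1. A CTCF summit lay inside 555 domains (18.1%, 16.8 to 19.5%), against 3.17% of all WT peaks, and an SMC1 summit inside 450 (14.7%, 13.5 to 16.0%), against 1.70%. These shares rise with region width. Within 10 kb outside, a CTCF summit was found at 1546 domains (50.5%, 48.7 to 52.3%) and an SMC1 summit at 1626 (53.1%, 51.3 to 54.9%). The shares over all WT peaks were 43.3% and 43.2%, and over peaks of 2 to 5 kb 48.1% and 48.1%. Both edges had a CTCF summit within 10 kb in 325 domains (10.6%).

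By distance, the density was highest just outside the edge. Each edge was taken separately here, so bases in other wide domains were included and a summit near several edges counted at each. WT CTCF summits stood at 25.1 per Mb at 2 to 2.5 kb inside, 34.9 in the outermost 0.5 kb inside, 58.5 in the nearest 0.5 kb outside and 63.7 at 0.5 to 1 kb outside. They then declined to 44.4 per Mb at 1.5 to 2 kb and 39.6 at 7.5 to 10 kb. SMC1 had a sharper maximum of 101.9 per Mb at 0.5 to 1 kb outside, against 24.8 in the outermost 0.5 kb inside and 36.6 at 7.5 to 10 kb outside. In KO the same bin held 24.2 per Mb for CTCF and 52.9 for SMC1. The wide flanks of 40 to 50 kb stood at 38.0 per Mb for CTCF in WT, above the 24.1 per Mb of chromosomes 1 to 19. The maximum beside the edge was not particular to CTCF and SMC1. WT H3K4me3 summits also peaked at 0.5 to 1 kb outside, with 83.0 per Mb, against 15.6 at 40 to 50 kb.

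**Figure D4:**
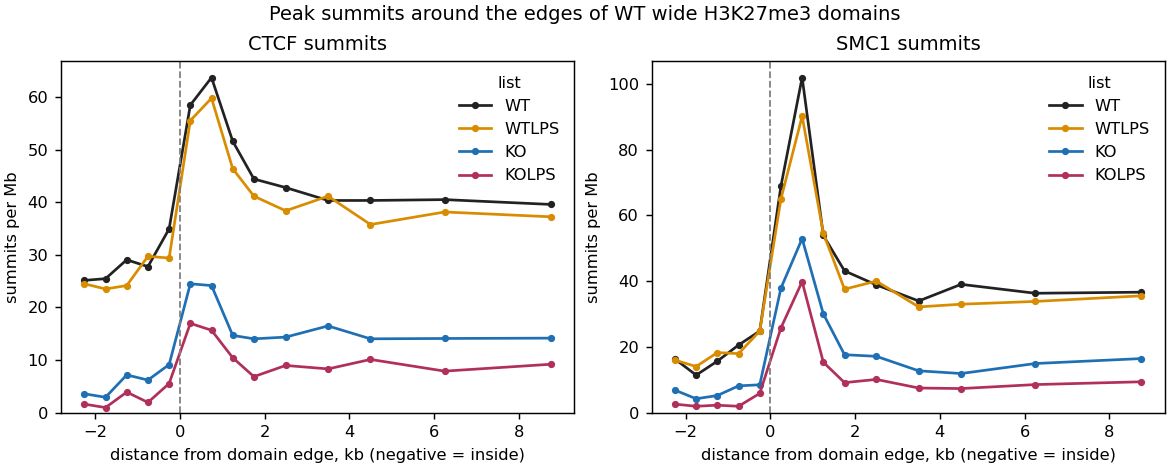
CTCF (left) and SMC1 (right) peak summits per Mb (y axis) against distance from the edges of the 3062 WT wide domains in kb (x axis, negative values inside, dashed line at the edge), with 1 line per list. WT reaches 63.7 (CTCF) and 101.9 (SMC1) per Mb at 0.5 to 1 kb outside, and KO reaches 24.2 and 52.9 in the same bin. Bases in other wide domains are included.

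The share of WT CTCF peaks still called in KO was lower inside domains than beside them. Inside, the number of summits was 743 (WT), 657 (WTLPS), 140 (KO) and 83 (KOLPS), and in the flanks 2009, 1902, 765 and 465. The KO to WT ratio was 0.188 inside, 0.381 in the flanks, 0.329 for both together and 0.336 on chromosomes 1 to 19. For SMC1 the numbers inside were 547, 567, 233 and 107, and the KO to WT ratio was 0.426 inside, 0.424 in the flanks, 0.424 together and 0.476 on chromosomes 1 to 19. Of WT CTCF peaks, a KO peak overlapped 14.8% inside domains (12.4 to 17.5%) and 29.6% in the flanks (27.7 to 31.7%), against 23.9% of all WT CTCF peaks. A WTLPS peak overlapped 72.5% and 83.3%, against 79.3%, and a KOLPS peak 9.69% and 20.7%, against 15.7%. Peaks inside were also weaker in WT, with a median fold of 5.49, against 8.61 in the flanks and 6.75 overall. For SMC1, KO overlap was 25.8% inside and 32.9% in the flanks, against 34.8% overall. The WTLPS values were 73.1% and 81.5%, against 74.5%, and the KOLPS values 12.6% and 21.2%, against 21.3%.

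The motif shown above was searched on both strands within 50 bases of WT CTCF summits. It was present at 22.6% of summits inside domains (19.7 to 25.8%, n = 743), 28.6% in the flanks (26.6 to 30.6%) and 30.5% of all 59257 summits, against 1.01% of tiles of the same length along chromosomes 1 to 19. Of the pairs of an edge and a motif-bearing summit within 2 kb outside, the motif pointed towards the domain in 85 of 172 (49.4%, 42.0 to 56.8%). Within 10 kb it did so in 340 of 658 (51.7%, 47.9 to 55.5%). No preferred direction was detectable at these numbers.

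The 3 domains listed for most WT CTCF summits inside, with ties broken by width, held 4 each. They lay at interferon genes, at Il3 and on chromosome 19. In all, 32 domains held 3 or more, and these counts were not scaled to width. The interferon domain with Ifna16, Ifna2 and Ifnab held 4 CTCF summits in both WT and WTLPS, 1 in KO and 2 in KOLPS. A domain of 18890 bp with the start of Il3, the multi-lineage haematopoietic cytokine gene (chr11:54250079-54268968), held 4, 4, 2 and 2, with 3, 4, 0 and 0 SMC1 summits. Its H3K27me3 cover was 53.8% (WTLPS), 70.8% (KO) and 6.94% (KOLPS). The domain of 19722 bp on chromosome 19, 14629 bp from Kcnk18 (chr19:59184864-59204585), held 4, 3, 1 and 1 CTCF summits and was 66.6%, 88.0% and 30.2% covered. The Hoxc12 to Hoxc9 domain held 2, 2, 0 and 0. Domains with a WT CTCF summit inside were kept in KO in 91.7% of cases against 83.2% without, a difference of 8.50 points (5.55 to 11.0), and in WTLPS in 73.5% against 63.5%, a difference of 9.97 points (5.72 to 14.0). In KOLPS the difference was 4.44 points (1.64 to 7.66). Both the share with CTCF inside and the share kept rise with width, and these groups were not matched for width.

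Edges with a nearby CTCF peak were crossed by KO H3K27me3 peaks more often than other edges. An edge was counted as crossed where 1 peak of the other list covered the bases on both of its sides, which WT peaks cannot do by definition. Over all 6124 edges, 51.0% were crossed in KO, 31.9% in WTLPS and 7.89% in KOLPS, whose lists differ in size. Of these edges, 638 had a WT CTCF summit within 2 kb outside. In KO, 62.1% of these were crossed (58.2 to 65.8%) against 49.7% of the other 5486 (48.4 to 51.0%), a difference of 12.4 points (8.31 to 16.3). In WTLPS the values were 29.6% and 32.1%, a difference of −2.49 points (−6.13 to 1.36). In KOLPS they were 11.4% and 7.47%, a difference of 3.97 points (1.61 to 6.75). Edges of neighbouring domains share surroundings, so these intervals are likely too narrow.

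The KO difference was 17.0 points (11.9 to 21.7) with CTCF within 1 kb and 7.33 points (4.13 to 10.5) with CTCF within 5 kb. Among edges without a WT H3K4me3 summit within 2 kb it was 11.8 points (7.34 to 16.1). Edges with SMC1 in the same window, with or without CTCF, were crossed in 51.5% of cases in KO, and those with both proteins in 64.7%. The crossed share was not confined to edges whose CTCF peak was gone in KO. Where a KO CTCF peak overlapped the same 2 kb, 72.3% of 220 edges were crossed (66.01 to 77.8%), and where none did, 56.7% of 418 (51.9 to 61.4%). When the 2916 wide KO peaks were taken as the starting set, edges beside a WT CTCF summit were crossed by WT peaks in 48.4% of cases and other edges in 59.1%, a difference of −10.7 points (−15.2 to −6.15).

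In the first 0.5 kb outside the edge, H3K27me3 peaks covered 53.3% of bases in KO at edges with CTCF and 39.3% at edges without. The values were 18.2% and 22.6% in WTLPS and 8.60% and 4.76% in KOLPS. At 2 to 3 kb outside they were 54.0% and 48.4% in KO, 33.1% and 34.9% in WTLPS, and 51.0% and 56.1% in WT itself. Beyond the edge of a WT domain another WT peak thus often followed within a few kb.

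**Figure D5:**
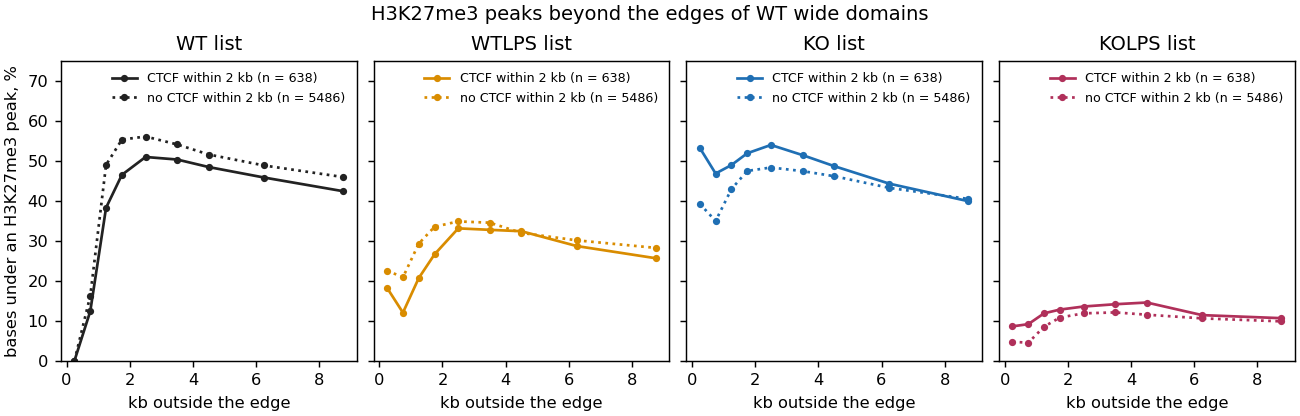
Percent of bases under an H3K27me3 peak (y axis) against distance outside the edges of WT wide domains in kb (x axis), for 638 edges with a WT CTCF summit within 2 kb (solid) and 5486 without (dotted), in each list. In KO the solid line starts at 53.3% and the dotted line at 39.3%, and in WTLPS they start at 18.2% and 22.6%.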

How the data were processed

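ChIP-seq of BMDCs gave 30 peak lists, 1 per antibody and condition, from 34 samples. The 4 input samples had no list used here. The deposited lists held the authors' peak positions, fold enrichment, and −log10 p and −log10 q values, as written by the peak caller. Per the labels, the submitters' processing notes name BWA 0.7.12, Picard 1.77, MACS2 2.1.2, deepTools 3.1.3 and the mm10 build. Broad calling was used for H3K27me3. Per the study's methods, each condition had more than a single biological replicate and peaks were called per sample and replicate, while its reporting summary says that replicates were merged and processed again. Which of these each deposited list holds was not given in the sources used here. Read totals per library, given in that summary, were not used in any computation, and weak peaks may be missing from shallower lists.

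Sample groups were taken from the labels. The members and gene lists were chosen with earlier results of these data known. Overlaps were computed in Python 3.11.15 with numpy 2.4.6, pandas 2.3.3 and scipy 1.17.1. CTCF, SMC1, p65, STAT5, H3K4me3 and H3K27ac peaks were placed by their summits and H3K4me1 peaks by their centres. Flanks extended 10 kb outside each edge, and densities over whole flanks left out bases in other wide domains. Densities by distance from the edge took each edge separately and did not leave them out. Start sites came from GENCODE release M21 and sequence from RefSeq GRCm38.p6, the same build. Genes named were those starting in the 10 widest domains, up to 6 per gene list by domain width, all members of lists with 5 or fewer, and genes at the 3 domains with most WT CTCF summits and with the highest and lowest KOLPS cover. Some genes that meet this rule are not reported here. With 1 list per condition no test was made. Wilson intervals for shares and Newcombe intervals for differences, both at 95%, cover counting error only. The overlap functions were tested on simulated regions. Alternatives were the width minimum, joining of nearby peaks, a common threshold, other transcripts, stricter CTCF and SMC1 peaks, a narrower flank and removal of regions shared by many lists.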

Additional observations from a re-analysis of the deposited data

Results flagged for a closer look

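For 4 marks, the number of peaks inside wide domains differed with opposite signs under the same contrast. Of these differences, those of −2, 4 and 20 are small beside the counts they come from, so their signs show no direction. Each number comes from 1 list per condition, so these differences were not tested. H3K27ac peaks inside domains differed by 74 between KO and WT (132 against 58) and by −2 between KOLPS and WTLPS (212 against 214). H3K4me1 peaks differed by 164 between KO and WT (1724 against 1560) and by −448 between KOLPS and WTLPS (1068 against 1516). H3K4me3 peaks differed by 4 between WTLPS and WT (608 against 604) and by −196 between KOLPS and KO (696 against 892). SMC1 peaks differed by 20 between WTLPS and WT (567 against 547) and by −126 between KOLPS and KO (107 against 233). The KOLPS lists of H3K4me1, H3K4me3 and SMC1 were also the shortest of their mark on chromosomes 1 to 19, with 77779, 20382 and 17156 peaks. The lists they are set against here held 87700 (H3K4me1, WTLPS), 24817 (H3K4me3, KO) and 29835 (SMC1, KO) peaks.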

How the results depend on the processing

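Of 59 values recomputed under 8 alternative settings, 32 stayed within their counting intervals and 27 moved. Among the 32 were 11 values of the setting that removed no domain, which could not move. The cause was not tested for those that moved. With a width minimum of 10 kb, the shares kept were 88.3% in WTLPS, 93.7% in KO and 12.1% in KOLPS, 17.9% of domains held a coding start, the KO to WT ratio was 0.277 for CTCF and 0.496 for SMC1, and the inside to outside ratio of SMC1 was 0.539. Joining WT peaks up to 1 kb apart gave 5362 domains, with 40.6%, 72.6% and 3.38% kept, 16.2% with a coding start and 51.1% with SMC1 within 10 kb. At a common −log10 p of 3.47, 79.3% were kept in KO. Joining the other list's peaks gave 78.1%, 89.0% and 15.7% kept. Using all transcripts, 18.55% of domains held a coding start. With CTCF and SMC1 peaks of −log10 p of at least 10, 44.2% of domains had CTCF and 45.6% SMC1 within 10 kb, the inside to outside ratios were 0.503 and 0.381, and the SMC1 KO to WT ratio was 0.317. With flanks of 5 kb, these shares were 33.5% and 36.9%, the CTCF KO to WT ratio 0.304 and the SMC1 inside to outside ratio 0.408. Leaving out regions with peaks in at least 20 lists removed no domain. For the KO difference between edges with and without CTCF, 5 alternatives chosen after seeing the data kept its direction. No paired analysis was possible because each antibody and condition had 1 list.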
